A study of Mus musculus with 6 samples.

Results

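The genes described here encode subunits of SAGA, TFIID and Mediator, coactivators through which RNA polymerase II is brought to promoters. They were chosen by name, as 60 gene symbols. Of these, 57 were found among the 11866 genes of the deposited table. All 57 were among the 10770 genes that were tested, those with a mean FPKM of at least 1. FPKM is fragments per kilobase of transcript, scaled to a size set for each library. Taf9, Taf9b and Med10 are not analysed here. The 57 genes divide into 18 of SAGA, 13 of TFIID, 27 of Mediator and Taf15. Taf10 and Taf12 belong to both SAGA and TFIID and are counted in each. The RNA came from HCC3-4, a cell line started from a liver tumour of mice with a MYC transgene. It was stably transfected with a hairpin against Sf3b3 (KD, 3 libraries) or with the control vector pLKO.1-TRC (PLKO, 3 libraries). The labels describe 1 hairpin and no rescue, so effects of lower Sf3b3 and other differences between the transfected populations cannot be told apart. Whether replicate libraries come from separate cultures is not stated, and p-values therefore measure the spread between libraries, which may be technical.

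TFIID is the complex of TBP and TBP-associated factors (TAFs) that recognises core promoters and starts assembly of the transcription machinery. SAGA is a coactivator with separate modules: a histone acetyltransferase around KAT2A or KAT2B, a histone H2B deubiquitinase around USP22, a core of histone-fold proteins that shares TAFs with TFIID, and TRRAP, which binds activators. SF3B3 and SF3B5 also sit in SAGA, apart from their role in the U2 snRNP of the spliceosome. Mediator links activators to RNA polymerase II through a head, a middle and a tail held by MED14, and a separable kinase module.

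Each library held between 15140441 and 17566101 reads on the listed genes. Sf3b3 stood at 22.6, 28.7 and 29.2 FPKM in PLKO 1, 2 and 3 and at 10.3, 9.56 and 13.9 FPKM in KD 1, 2 and 3. The groups did not overlap, and the log2 fold change of KD minus PLKO was -1.26 (SE 0.23, limma adjusted p = 0.037). KD 3 held the most Sf3b3 of the KD libraries. The libraries numbered 3 shared deviations from their group means (correlation 0.50 across genes), so results are also given without them. Of 6 hepatocyte markers only Afp was among the rows analysed, at 0.302 to 0.467 FPKM in PLKO and 0.814 to 1.98 FPKM in KD, without overlap. Of 6 epithelial markers 3 were present, with sums of 65.0 to 92.2 FPKM in PLKO and 54.4 to 99.2 FPKM in KD. Among them Krt8 (53.4 to 79.7 FPKM in PLKO, 42.2 to 76.5 FPKM in KD) and Krt19 (at most 5.87 FPKM in PLKO and 13.1 FPKM in KD, log2 fold change 0.47) overlapped between groups, and Krt18 (5.27 to 6.62 and 8.41 to 9.60 FPKM) was higher in every KD library. Of 7 fibroblast markers 5 were present, with summed levels of 103 to 157 FPKM in PLKO and 52.9 to 75.7 FPKM in KD, led by Pdgfrb and Col3a1. Pdgfrb, Col3a1, Col1a1 and Col1a2 were lower in every KD library. Pdgfra lay the other way, with overlapping groups (log2 fold change 0.31). Of 6 leukocyte markers 2 were present (Cd68 and Cd14), with sums of 14.9 to 53.1 FPKM in PLKO and 53.3 to 113 FPKM in KD, and of 4 endothelial markers 0 were. Cd68 was higher in every KD library, while Cd14 overlapped between groups. The part of these differences in the results below was not tested. In bulk RNA, fewer cells of a type and less RNA per cell cannot be told apart.

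Transcripts of the 3 complexes lay in both directions, 27 above 0 and 30 below, beside 5133 and 5637 of all tested genes. The fit over all genes (limma, Benjamini-Hochberg adjusted p under 0.05) called 2 of the 57 genes, Taf12 and Taf15, both lower in KD. That is 3.51% of the members, against 2.92% of all 10770 tested genes (1.12% higher and 1.79% lower), a share near the background. The replicate number was also used as a block, which assumes a pairing that no label gives. Libraries 1 and 2 correlated across groups no more at equal numbers (0.18 and 0.29) than at unequal ones (0.27 and 0.30). With this block, 6 members were called higher (Supt7l, Taf5, Taf7, Med18, Med23 and Med26) and 4 lower (Tada1, Taf12, Taf13 and Taf15). These 17.5% stand beside 19.3% of all tested genes (8.19% higher and 11.1% lower). The KD and PLKO values did not overlap for 18 members (31.6%), 7 higher and 11 lower, beside 32.1% of all tested genes (13.4% higher and 18.8% lower). A fold change of at least 2, by the group means of log2 FPKM, was seen for 4 members (7.02%) and for 11.1% of all tested genes. For a single gene whose groups do not overlap, the exact two-sided permutation test gives p = 0.1, the smallest that 3 against 3 libraries allow.

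**Figure D1:**
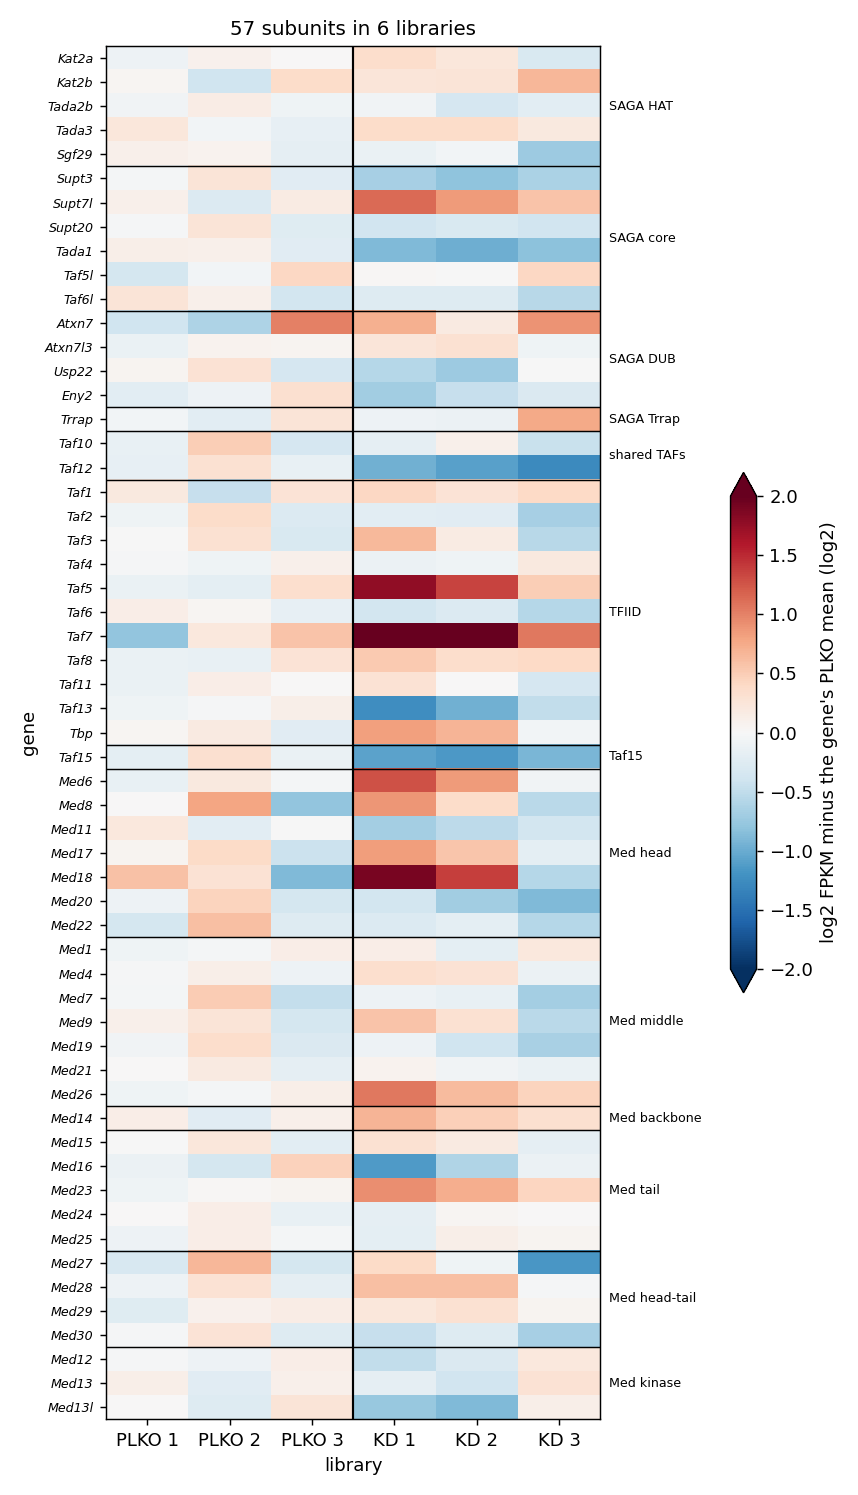
Heat map of the 57 subunits (rows) in 6 libraries (columns), coloured by log2 FPKM minus the mean of the 3 PLKO libraries for that gene, with colours ending at -2 and 2. Rows are grouped by complex and module (HAT, acetyltransferase; DUB, deubiquitinase); Taf7, Taf5 and Med18 are darkest in KD 1 and KD 2 and paler or of the opposite sign in KD 3.

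By complex, the median log2 fold change was -0.19 for the 18 SAGA genes, -0.003 for the 13 TFIID genes and -0.006 for the 27 Mediator genes, beside -0.04 for all tested genes. Members above and below 0 numbered 8 and 10 in SAGA, 6 and 7 in TFIID, and 13 and 14 in Mediator. The SAGA median depended on single libraries, at -0.03 without PLKO 2 and -0.28 without PLKO 3. The median absolute log2 fold change was 0.37 over the members and 0.40 over all tested genes. Levels were moderate, with a median of 10.8 FPKM over the members against 10.1 FPKM over all tested genes, from 2.97 FPKM for Tbp to 52.2 FPKM for Taf15.

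The promoters of 4 genes of TFIID or associated with it are shown, so that genes called in opposite directions with the replicate block can be read side by side: Taf12, Taf15 and Taf13, which were lower in KD, and Taf5, which was higher. Taf7, also called higher with the block and with a larger fold change than Taf5, is not shown. Each is the plus strand 5′ to 3′ in GRCm38.p6, from RefSeq, and ends at the last base before the gene start in GENCODE M21. The intervals are chr4:132274125-132274374 for Taf12, chr11:83472858-83473085 for Taf15, chr3:108571449-108571697 for Taf13 and chr19:47067498-47067745 for Taf5. Capitals mark matches, on either strand, to the TATA box with the letters TATAAA, the CCAAT box named by its letters, the GC box with the letters GGGCGG, the ETS core with the letters CGGAAG, the E-box of MYC and MAX with the letters CACGTG and the cyclic AMP response element (CRE) with the letters TGACGTCA. None of these motifs contains another.
Taf12: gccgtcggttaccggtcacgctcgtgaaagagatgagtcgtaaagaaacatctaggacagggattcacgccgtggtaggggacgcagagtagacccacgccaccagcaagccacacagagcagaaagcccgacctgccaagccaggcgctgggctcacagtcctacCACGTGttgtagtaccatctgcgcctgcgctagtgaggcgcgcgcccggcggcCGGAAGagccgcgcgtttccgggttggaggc
Taf15: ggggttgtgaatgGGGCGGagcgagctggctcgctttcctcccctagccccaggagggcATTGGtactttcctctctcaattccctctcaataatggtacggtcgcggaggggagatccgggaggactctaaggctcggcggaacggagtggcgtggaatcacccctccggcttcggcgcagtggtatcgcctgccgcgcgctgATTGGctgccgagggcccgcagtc
Taf13: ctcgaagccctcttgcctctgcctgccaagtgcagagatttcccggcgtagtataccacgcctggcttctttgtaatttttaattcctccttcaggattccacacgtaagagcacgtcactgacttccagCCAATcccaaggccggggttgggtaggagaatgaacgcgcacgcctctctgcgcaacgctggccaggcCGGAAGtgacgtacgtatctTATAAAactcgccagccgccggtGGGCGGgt
Taf5: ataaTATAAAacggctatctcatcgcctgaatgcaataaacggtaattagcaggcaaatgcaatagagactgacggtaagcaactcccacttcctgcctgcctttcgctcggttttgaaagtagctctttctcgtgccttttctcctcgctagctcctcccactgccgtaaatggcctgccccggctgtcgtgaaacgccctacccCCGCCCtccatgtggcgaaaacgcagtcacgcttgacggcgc

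Taf12 held 1 E-box and 1 ETS core, Taf15 held 2 CCAAT boxes and 1 GC box, Taf13 held 1 match each to the TATA box, CCAAT box, ETS core and GC box, and Taf5 held 1 TATA box far upstream and 1 GC box. No CRE was found in the 4 windows. Over 250 bases upstream of the start, 48 member genes had a promoter in the table. An E-box was present in 8.33% of them and in 6.02% of all 32851 promoters, many of which belong to noncoding or predicted genes. A TATA box was found in 14.6% and 12.4%, a CCAAT box in 39.6% and 33.8%, a GC box in 66.7% and 32.7%, an ETS core in 31.2% and 13.6%, and a CRE in 4.17% and 1.55%. A match is a run of letters and not a measured binding site.

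Among the TAFs shared by SAGA and TFIID, Taf12 fell. TAF12 is a histone-fold protein that pairs with TAF4 in TFIID and with TADA1 in SAGA. Taf12 stood at 10.9, 15.2 and 11.04 FPKM in PLKO 1, 2 and 3 and at 6.28, 5.75 and 5.05 FPKM in KD 1, 2 and 3. All KD libraries lay below all PLKO libraries, and the KD mean of 5.69 ± 0.614 FPKM (SD, n = 3) was 46.0% of the PLKO mean of 12.4 ± 2.43 FPKM. The log2 fold change was -1.11 (SE 0.23, 95% confidence interval -1.62 to -0.60, limma adjusted p = 0.044), with 704 to 1022 reads in PLKO and 356 to 390 in KD. The gene lies on chromosome 4 from 132274375 to 132295766 on the plus strand. Its direction was the same in all 15 alternatives, and 9 of them called it. The limma adjusted p was 0.13 without PLKO 1, 0.13 without PLKO 2, 0.16 without KD 1 and 0.19 without KD 2, fits in which no gene was called at all. It was 0.0503 with voom on recovered reads and 0.054 without the mean-variance trend, both just above the threshold. Taf10, another shared histone-fold subunit, had 20.7 ± 6.55 FPKM in PLKO against 18.0 ± 3.36 FPKM in KD, with overlapping groups (log2 fold change -0.18, limma adjusted p = 0.70). Without PLKO 2 the log2 fold change of Taf10 was 0.07.

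Taf15, which encodes an RNA-binding protein that associates with a fraction of TFIID, fell by 1.04 on the log2 scale (SE 0.21, interval -1.52 to -0.57, limma adjusted p = 0.044). It stood at 60.9, 87.0 and 63.8 FPKM in PLKO 1, 2 and 3 and at 33.1, 31.6 and 36.9 FPKM in KD 1, 2 and 3. The KD values were close to each other and far from the PLKO values, with a KD mean at 48.0% of the PLKO mean. Taf15 was the most abundant of the members, with 2944 to 4245 reads in PLKO and 1457 to 1889 in KD. It lies on chromosome 11 from 83473086 to 83506743. The fall was called in 10 of 15 alternatives, and the limma adjusted p was 0.13 without PLKO 1, 0.13 without PLKO 2, 0.17 without KD 1, 0.20 without KD 2 and 0.057 without the mean-variance trend.

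**Figure D2:**
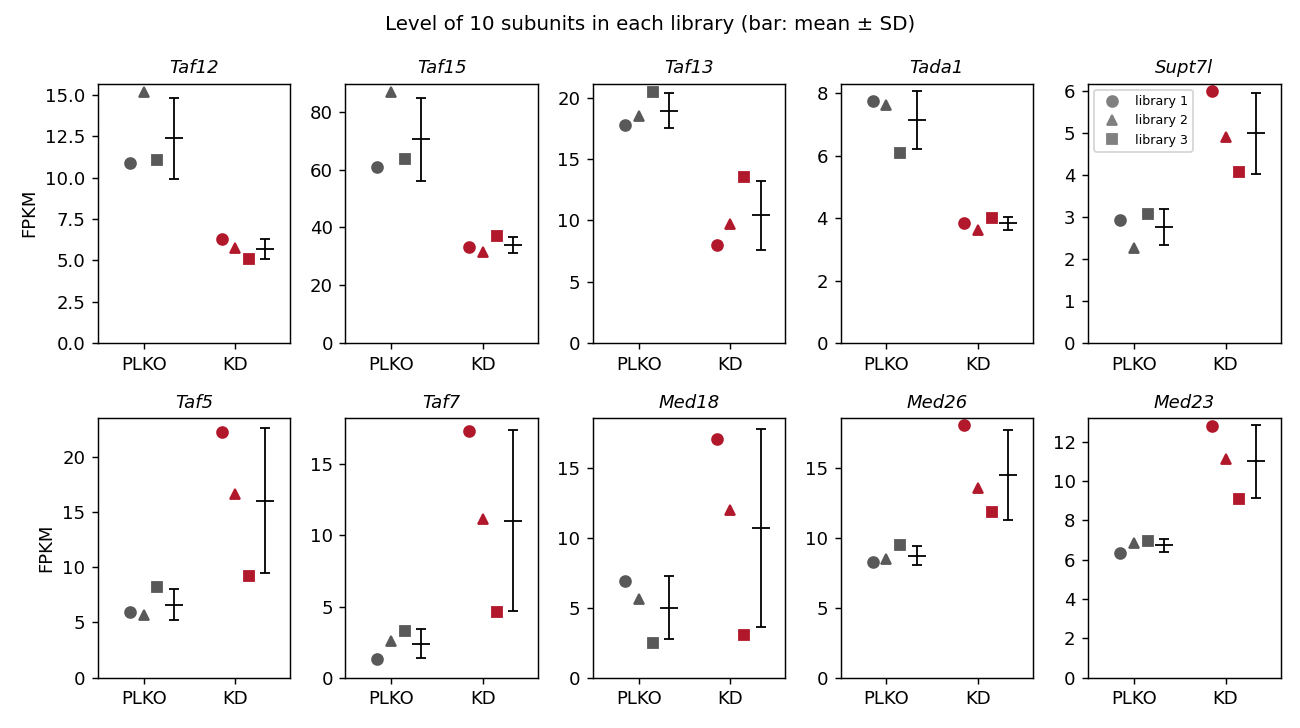
FPKM of 10 subunits in each library, PLKO in grey and KD in red, with symbols for the library number and a bar for the mean ± SD of 3 libraries. The panels are the members called in the fit over all genes or with the replicate block; Taf12, Taf15 and Tada1 have tight KD values below all PLKO values, while Taf5, Taf7 and Med18 spread from a high KD 1 to a KD 3 near or within the PLKO values.

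In the acetyltransferase module of SAGA 0 of 5 genes were called by limma, beside 2.92% of all tested genes. An unadjusted p under 0.05 was reached by 0 of the 5, beside 27.6%. So few genes give no contrast with these shares. Kat2a (GCN5) and Kat2b (PCAF) encode alternative acetyltransferases. Kat2a had 21.5 ± 1.36 FPKM in PLKO against 23.2 ± 5.25 FPKM in KD (log2 fold change 0.09, interval -0.42 to 0.60), and Kat2b had 7.17 ± 1.84 and 9.27 ± 1.63 FPKM (0.39, interval -0.20 to 0.97). The ratio of Kat2a to Kat2b was 2.79, 4.29 and 2.40 in PLKO 1, 2 and 3 and 3.31, 2.98 and 1.55 in KD 1, 2 and 3, with overlapping groups (exact two-sided permutation p = 0.6, 0.8 after adjustment over 4 paralog ratios). The adaptor genes Tada3, Tada2b and Sgf29, whose product reads methylated histone H3, had log2 fold changes of 0.31, -0.20 and -0.31. Tada3 was at 12.0 to 15.7 FPKM in PLKO against 15.5 to 17.4 FPKM in KD, with overlap. The limma adjusted p of the 5 genes ran from 0.34 to 0.82.

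The SAGA core held the members of SAGA that differed most besides Taf12, in both directions. Tada1, the histone-fold partner of TAF12 in SAGA, stood at 7.75, 7.64 and 6.08 FPKM in PLKO 1, 2 and 3 and at 3.85, 3.62 and 4.02 FPKM in KD 1, 2 and 3. The groups did not overlap, and the KD mean was 53.5% of the PLKO mean. The log2 fold change of -0.89 (SE 0.22) had limma adjusted p = 0.059, against 0.022 with the replicate block. Supt7l, a core subunit that pairs with TAF10, lay the other way, at 2.92, 2.26 and 3.06 FPKM in PLKO 1, 2 and 3 and at 5.98, 4.91 and 4.06 FPKM in KD 1, 2 and 3. Its log2 fold change was 0.85 (SE 0.26, limma adjusted p = 0.089, against 0.039 with the block). Supt3, which contacts TBP, had 7.60 ± 1.31 FPKM in PLKO against 4.63 ± 0.296 FPKM in KD without overlap (-0.70, limma adjusted p = 0.092, against 0.053 with the block). The scaffold gene Supt20 (-0.35) also had groups that did not overlap. Taf6l (-0.36) and Taf5l (0.14), the SAGA forms of TAF6 and TAF5, had overlapping groups and limma adjusted p of 0.36 and 0.74. In all, 3 of 6 core genes had an unadjusted p under 0.05, beside 27.6% of all tested genes, and 0 were called by limma, beside 2.92%. As in the acetyltransferase module, so few genes give no contrast with these shares. Gene bodies of Tada1 and Pogk, of Supt7l and Slc4a1ap, of Supt3 and Runx2 and of Supt20 and Exosc8 overlap on opposite strands, and whether strand was used in counting is not given. The same limit holds for other genes named here, among them Sf3b3 (with Cog4), Eny2 (Nudcd1), Tbp (Pdcd2), Taf10 (Ilk) and Ccnh (Rasa1).

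The deubiquitinase module and Trrap held no called gene either, beside 2.92% of all tested genes. An unadjusted p under 0.05 was reached by 0 of the 5, beside 27.6%, again too few genes for a contrast. Usp22, the ubiquitin protease, stood at 46.4, 54.7 and 35.3 FPKM in PLKO 1, 2 and 3 and at 30.0, 27.0 and 44.4 FPKM in KD 1, 2 and 3. KD 1 and KD 2 were below every PLKO library and KD 3 was not (log2 fold change -0.44, limma adjusted p = 0.30). Without both libraries numbered 3 it was called lower. Eny2, a small subunit shared with the mRNA export complex TREX-2, had groups that did not overlap, with 10.97 ± 2.19 FPKM in PLKO against 7.84 ± 1.09 FPKM in KD (-0.48, limma adjusted p = 0.21). Atxn7l3 (0.16) had overlapping groups, and so did Atxn7 (0.60), whose product anchors the module. Atxn7 was at 1.94 to 5.94 FPKM in PLKO and at 3.37 to 5.51 FPKM in KD, and its gene body overlaps Thoc7. Trrap had 7.73 ± 1.29 and 9.05 ± 3.35 FPKM (0.18), with its highest level in KD 3, and without KD 3 the log2 fold change was -0.11.

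TFIID subunits outside SAGA spread most widely, from -0.90 for Taf13 to 2.12 for Taf7. Of these 11 genes 0 were called by limma, beside 2.92% of all tested genes. An unadjusted p under 0.05 was reached by 3 (27.3%, beside 27.6% of all tested genes), and 3 were called with the replicate block (27.3%, beside 19.3%). Taf7, whose product binds TAF1 and restrains its activity, was at 1.29, 2.57 and 3.29 FPKM in PLKO 1, 2 and 3 and at 17.4, 11.1 and 4.61 FPKM in KD 1, 2 and 3. The groups did not overlap, but KD 3 came close to PLKO 3. The log2 fold change was 2.12 (SE 0.51, interval 0.97 to 3.27) and the limma adjusted p 0.058, against 0.0085 with the block. Its reads ran from 75 to 170 in PLKO against 265 to 885 in KD. Taf5, the WD40 scaffold of TFIID, was at 5.92, 5.65 and 8.24 FPKM in PLKO 1, 2 and 3 and at 22.3, 16.7 and 9.18 FPKM in KD 1, 2 and 3. It too was highest in KD 1 and lowest among the KD libraries in KD 3, with a log2 fold change of 1.21 (SE 0.33, limma adjusted p = 0.070, against 0.018 with the block). Its gene body overlaps Usmg5 on the opposite strand.

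Taf13 lay in the opposite direction. It encodes the histone-fold partner of TAF11 and stood at 17.8, 18.5 and 20.5 FPKM in PLKO 1, 2 and 3 and at 7.99, 9.72 and 13.5 FPKM in KD 1, 2 and 3. The groups did not overlap (log2 fold change -0.90, SE 0.24, limma adjusted p = 0.065, against 0.017 with the block). Its partner Taf11 had 7.54 ± 0.708 FPKM in PLKO against 7.59 ± 1.64 FPKM in KD (log2 fold change -0.01, interval -0.54 to 0.52). Taf4, the partner of TAF12 in TFIID, had 8.28 ± 0.555 and 8.29 ± 1.03 FPKM (-0.003, interval -0.47 to 0.46). Taf13 and Taf11, and Taf12 and Taf4, thus had unlike values, which were not tested against each other.

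The other TFIID genes were not called. Tbp, which encodes the TATA-binding protein, was at 2.498, 2.75 and 2.07 FPKM in PLKO 1, 2 and 3 and at 4.28, 3.89 and 2.33 FPKM in KD 1, 2 and 3, with KD 3 inside the PLKO range (log2 fold change 0.48, limma adjusted p = 0.34). Taf8, the partner of TAF10 in TFIID, had groups that did not overlap at a log2 fold change of 0.42 (limma adjusted p = 0.23), and so did Taf6 at -0.41 (limma adjusted p = 0.24). The gene body of Taf6 overlaps Ap4m1. Taf1, the largest subunit, had a log2 fold change of 0.36, the promoter-contacting Taf2 of -0.37 and Taf3, a reader of trimethylated histone H3 lysine 4, of 0.08, all with overlapping groups.

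**Figure D3:**
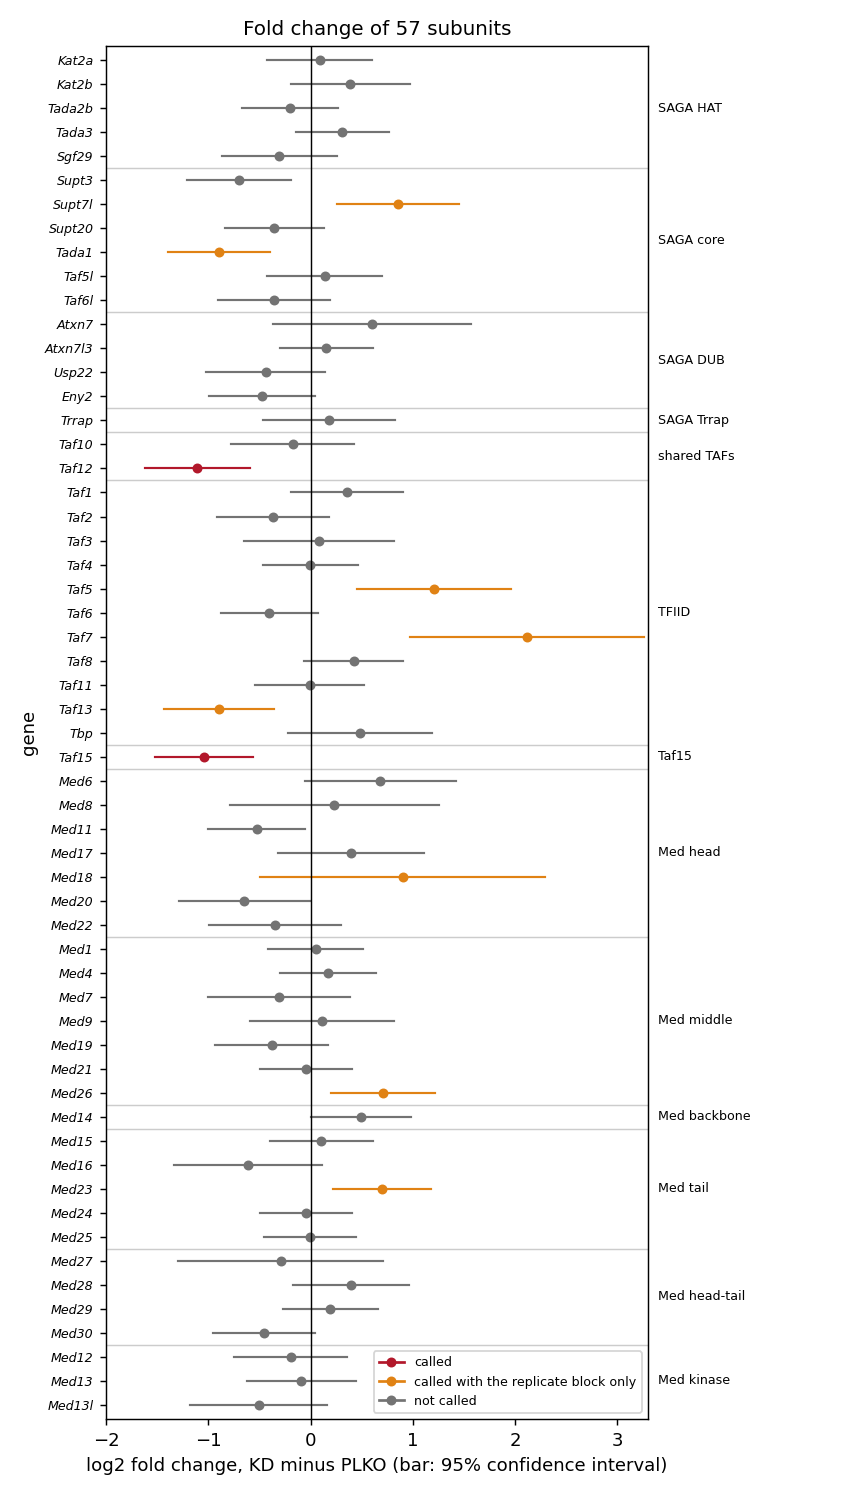
Log2 fold change (KD minus PLKO) of the 57 subunits with 95% confidence intervals from limma, grouped by complex and module; red marks the members called over all genes, orange those called with the replicate block only, and grey the rest. Taf12 and Taf15 are the 2 red points, near -1.1 and -1.0, and the interval of Med18 crosses 0 although the block calls it.

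In Mediator no gene of 27 was called by limma or by voom on recovered reads, beside 2.92% and 2.04% of all tested genes. Med11, Med14, Med20, Med23 and Med26 had an unadjusted p under 0.05, which is 18.5% of the complex beside 27.6% of all tested genes. No Mediator gene reached a fold change of 2 by the group means of log2 FPKM. By mean FPKM, Med18 in KD was at 214% of PLKO. The groups did not overlap for 6 of the 27 (22.2%), beside 32.1% of all tested genes. With the replicate block 3 were called (11.1%), beside 19.3%.

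In the head, which contacts RNA polymerase II, Med18 had the largest log2 fold change of Mediator. Med18 was at 6.91, 5.598 and 2.49 FPKM in PLKO 1, 2 and 3 and at 17.1, 12.0 and 3.08 FPKM in KD 1, 2 and 3. KD 3 lay inside the PLKO range and PLKO 3 was the lowest of all, so the groups overlap. The log2 fold change was 0.90 with an interval from -0.49 to 2.30 (limma adjusted p = 0.37). Adjusting for the replicate block gave 0.028 by limma. Med6 had the same order of KD libraries, at 47.7, 35.7 and 18.8 FPKM in KD 1, 2 and 3 against 17.8 to 22.7 FPKM in PLKO (0.68, limma adjusted p = 0.21). Med17, a scaffold of the head, had a log2 fold change of 0.40, and Med8 and Med22 of 0.23 and -0.35, all with overlapping groups. Med11 had 14.0 ± 2.08 FPKM in PLKO against 9.68 ± 1.04 FPKM in KD (-0.53, limma adjusted p = 0.15), and Med20, the partner of MED18, had 5.56 ± 1.64 and 3.49 ± 0.634 FPKM (-0.65, limma adjusted p = 0.18). Neither pair of groups overlapped.

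In the middle, Med26 was the gene with the lowest p. MED26 joins Mediator that lacks the kinase module and recruits elongation factors. It stood at 8.24, 8.46 and 9.46 FPKM in PLKO 1, 2 and 3 and at 18.0, 13.5 and 11.8 FPKM in KD 1, 2 and 3, without overlap (log2 fold change 0.71, SE 0.22, limma adjusted p = 0.091, against 0.048 with the block). Med1, the contact of nuclear receptors such as FXR, had 16.1 ± 1.29 FPKM in PLKO against 16.8 ± 2.47 FPKM in KD (0.05, interval -0.41 to 0.51). Med4, Med9 and Med21 had log2 fold changes of 0.17, 0.11 and -0.05, and Med7 and Med19 of -0.31 and -0.38, with overlapping groups. Med19 was at 15.3 to 23.9 FPKM in PLKO against 11.8 to 17.4 FPKM in KD. The backbone gene Med14 had 7.09 ± 0.914 and 9.97 ± 1.25 FPKM without overlap (0.49, limma adjusted p = 0.18).

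In the tail, which receives activators, Med23 was at 6.35, 6.85 and 6.96 FPKM in PLKO 1, 2 and 3 and at 12.8, 11.1 and 9.09 FPKM in KD 1, 2 and 3. Its PLKO values were close together (6.72 ± 0.324 FPKM) and all KD values lay above them (log2 fold change 0.70, SE 0.21, limma adjusted p = 0.086, against 0.047 with the block). Med16 lay the other way, at 6.32 to 11.1 FPKM in PLKO and 3.67 to 7.42 FPKM in KD, with overlap (-0.62, limma adjusted p = 0.24). Med15, Med24 and Med25 had log2 fold changes of 0.10, -0.05 and -0.01, with intervals that lie between -0.50 and 0.61. Of the subunits between head and tail, Med28 and Med29 had log2 fold changes of 0.40 and 0.19 and Med27 of -0.29, with overlapping groups. Med28 was at 8.15 to 11.2 FPKM in PLKO against 9.01 to 14.02 FPKM in KD. Med30, the most abundant of these 4, had 29.6 ± 5.55 FPKM in PLKO against 21.4 ± 2.94 FPKM in KD without overlap (-0.46, limma adjusted p = 0.21).

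In the kinase module Med13l was at 14.5, 12.0 and 17.1 FPKM in PLKO 1, 2 and 3 and at 8.49, 7.77 and 15.6 FPKM in KD 1, 2 and 3. KD 1 and KD 2 were below every PLKO library and KD 3 was inside their range (log2 fold change -0.51, limma adjusted p = 0.29). Its paralog Med13, which like it ties the kinase to core Mediator, had 14.99 ± 1.89 and 14.3 ± 3.49 FPKM (-0.09). The ratio of Med13 to Med13l was 1.11, 1.07 and 0.939 in PLKO 1, 2 and 3 and 1.55, 1.48 and 1.17 in KD 1, 2 and 3, higher in every KD library (exact two-sided permutation p = 0.1, the smallest possible, and 0.4 after adjustment). For Taf5 over Taf5l the ratio was 0.246 to 0.314 in PLKO and 0.288 to 0.915 in KD (p = 0.2 by the same exact test, adjusted 0.4), and for Taf6 over Taf6l 1.14 to 1.43 and 1.16 to 1.23 (p = 0.9 by the same exact test, adjusted 0.9). Med12, which activates the kinase, was at 7.02 to 8.29 FPKM in PLKO against 5.35 to 8.71 FPKM in KD (log2 fold change -0.20).

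KD 3 differed from the other KD libraries in several members. Relative to the PLKO mean, Taf7 was higher by 2.97, 2.33 and 1.05 on the log2 scale in KD 1, 2 and 3, Taf5 by 1.77, 1.36 and 0.50, and Med23 by 0.93, 0.73 and 0.44. For Med18 the differences were 1.89, 1.38 and -0.57. Taf12 did not follow this order, at -0.96, -1.09 and -1.27. Over all members KD 3 was not the library most often inside the PLKO range. KD 1, 2 and 3 lay inside it for 15, 19 and 18 of 57 members (26.3%, 33.3% and 31.6%), beside 30.3%, 36.2% and 42.5% of all tested genes. By complex the counts for KD 1, 2 and 3 were 8, 7 and 5 of 18 in SAGA, 2, 5 and 1 of 13 in TFIID and 6, 8 and 12 of 27 in Mediator, so that KD 3 was inside most often in Mediator and least often in SAGA and TFIID. Without KD 3, 7 members were called higher and 5 lower, 21.1% of the members beside 16.2% of all tested genes. Without both libraries numbered 3, 8 were called higher and 7 lower, 26.3% beside 27.9%.

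**Figure D4:**
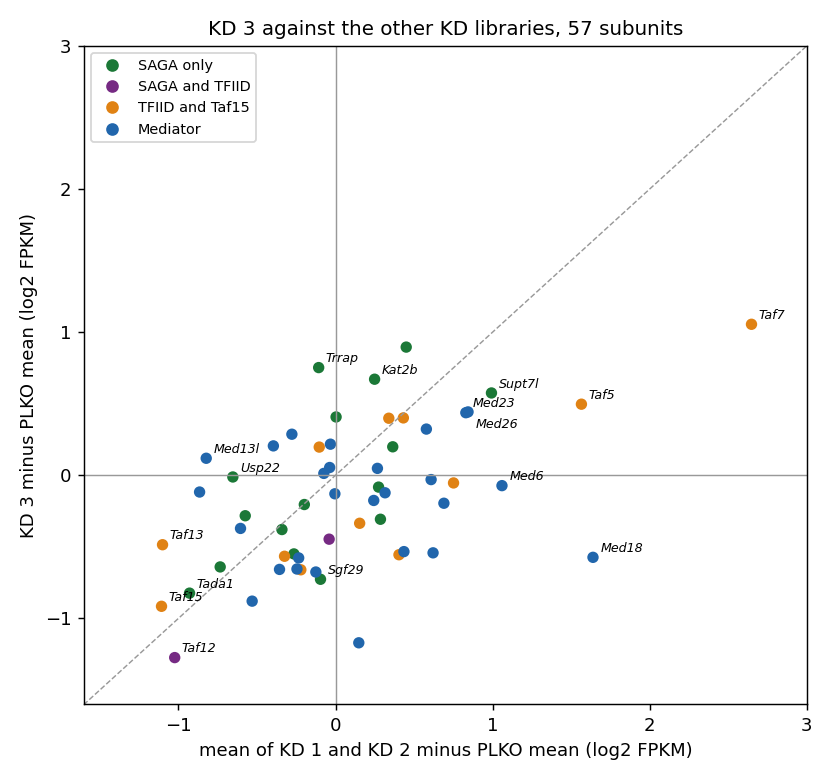
Log2 FPKM of each subunit in KD 3 minus its PLKO mean (vertical) against the mean of KD 1 and KD 2 minus the PLKO mean (horizontal), for 57 genes coloured by complex, with the line of equality dashed. Taf12 and Tada1 lie near the line on the low side, while Taf7, Taf5, Med6 and Med18 lie well below it on the high side.

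The number of exons was set beside the fold change. Counting exonic stretches after merging all annotated transcripts, the median was 10 in the members and 10 in all tested genes. Spearman's rho between this number and the log2 fold change was 0.03 over 57 members (Pearson's r 0.00) and -0.06 over 10522 tested genes with an annotation. These are descriptions across genes that share 6 libraries.

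Around the members, 12 further subunits of these complexes were tested, and Sf3b3 itself was the 1 called (8.33%, beside 2.92% of all tested genes). As Sf3b3 is the target of the hairpin, this share is no comparison with the background. Sf3b5, its partner in SAGA and SF3b, had 11.2 ± 0.898 FPKM in PLKO against 19.4 ± 6.52 FPKM in KD (log2 fold change 0.73, limma adjusted p = 0.14). Med31 of the Mediator middle was higher in every KD library (0.77, limma adjusted p = 0.096, against 0.033 with the block). The kinase gene Cdk19 had 12.3 ± 0.961 and 18.9 ± 0.463 FPKM (0.63, limma adjusted p = 0.081), its paralog Cdk8 had 7.62 ± 0.257 and 8.87 ± 0.913 FPKM (0.22), and the cyclin gene Ccnc had a log2 fold change of -0.44.

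Among the 7 genes of ATAC, the other complex built on KAT2A or KAT2B, 0 were called by limma, beside 2.92% of all tested genes. An unadjusted p under 0.05 was reached by 2 (28.6%, beside 27.6% of all tested genes). The ATAC median was -0.001, with Yeats2 lowest in p (-0.67, limma adjusted p = 0.13). Of 17 general transcription factor genes 14 were below 0, beside 5637 of all 10770 tested genes. The median of the 17 was -0.37, beside -0.04 over all tested genes, and the list was not tested as a set. None of the 17 was called by limma (beside 2.92%), and 4 had an unadjusted p under 0.05 (23.5%, beside 27.6% of all tested genes). With the block 3 were called, all lower, Gtf2f2, Ccnh and Mnat1 (17.6%, beside 19.3%). Ccnh, the cyclin of the TFIIH kinase, had 16.9 ± 2.19 FPKM in PLKO against 8.998 ± 2.77 FPKM in KD (-0.95, limma adjusted p = 0.069, against 0.020 with the block). The other kinase genes Mnat1 and Cdk7 had log2 fold changes of -0.81 and -0.37. Of 12 RNA polymerase II genes 0 were called by limma (beside 2.92%), with 2 at an unadjusted p under 0.05 (16.7%, beside 27.6%). Their median was 0.12, and Polr2b had the lowest p (0.59, limma adjusted p = 0.13).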

How the data were processed

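RNA-seq of HCC3-4 cells was analysed from 1 deposited table of log2 FPKM in 6 libraries, 3 KD and 3 PLKO. Libraries were made by poly(A) capture, per the labels' protocols. The submitters' processing notes name GRCm38 and FastQC 0.11.7; for aligner, counter, strand and gene filter the entry is: not given in the sources used here. That the deposited values are log2 was read from the values (-7.85 to 13.17). A prior averaging 2.0 reads had been added before the logarithm, which understates folds of genes with few reads. Whole reads were recovered from the steps this prior leaves (tolerance 0.01 reads), with GENCODE M21 exonic lengths for 92.38% of the genes and scanned lengths for the rest. Reads on the listed genes were 0.9378 (PLKO 1) to 1.0445 (PLKO 2) of the library size behind the values. That size is thus not the plain sum of reads, and how it was set is not given.

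Genes averaging 1 FPKM or more (10770) were fitted with limma 3.58.1 (R 4.3.3), with a mean-variance trend, on the log2 values as they stand, with the group alone in the model and Benjamini-Hochberg adjusted p under 0.05 called. Fold changes (log2) are KD minus PLKO, each with its standard error (SE). The fit was tested on simulated data. Values printed as FPKM were converted back from log2. Deviations of equal numbers correlated at 0.18, 0.29 and 0.50, above the limit of 0.1 for pairing. This comes from the data, not a label, and unequal numbers reached 0.27 and 0.30, so the block rests on an assumed pairing. The members and lists were chosen with earlier results of these data known. The rule gave full values to members called with or without the block, the 2 lowest p per module and the paralog pairs, and fold changes to the rest. Levels are also printed for Tbp, Med6, Supt3, Taf4, Taf11, Med1 and Atxn7, which the rule does not select for full values. From lists without members, the rule takes the called genes and the lowest p. Sf3b5, Med31, Cdk19, Cdk8, Ccnc, Gtf2f2, Mnat1 and Cdk7 fall outside this rule and were named after their values were seen. Symbols matched GENCODE M21 for 97.4% of genes and coordinates are 1-based on GRCm38. Alternatives were the block, log2(FPKM + 1), no filter, quantile and median scaling, no trend, array quality weights, voom on recovered reads, and libraries left out.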

Additional observations from a re-analysis of the deposited data

How the results depend on the processing

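Over 15 alternatives to the limma fit, the 314 genes called became 2080 with the replicate block, 151 without the mean-variance trend, 6030 with array quality weights, whose estimation stopped before convergence, and 3009 without both libraries numbered 3. Leaving out 1 library gave 0 to 1744 genes: 0 without PLKO 1, PLKO 2, KD 1 or KD 2 (1793 to 2315 at an unadjusted p under 0.05), 801 without PLKO 3 and 1744 without KD 3. The 2 members called became 10 with the replicate block, 0 without the trend, 30 with array weights, 1 with voom on recovered reads (Taf15), 15 without both libraries numbered 3, and 0 to 12 with 1 library left out. With log2(FPKM + 1), no filter, quantile normalization or median centring Taf12 and Taf15 were called and no other member. The log2 fold change of Sf3b3 lay between -1.43 and -1.15 with 1 library left out, and was not called without PLKO 1, PLKO 2, KD 1 or KD 2 (limma adjusted p from 0.13 to 0.19). The SAGA median lay between -0.28 and -0.03 with 1 library left out. The medians of TFIID and Mediator moved by less than the spread between libraries, although their sign varied around 0. Signs reversed for Trrap with array weights (-0.076) and without KD 3, and for Taf10 with array weights (0.177) and without PLKO 2, none of them called. With 1 library left out Trrap ranged from -0.107 to 0.326 and Taf10 from -0.346 to 0.068. Over the 25 members that the naming rule selects for full values, each under 15 alternatives, 314 comparisons kept their side of the threshold, 46 passed it only in the alternative and 11 lost the call. With 3 libraries a group, the narrowest 95% interval of a member, that of Med25, runs from -0.45 to 0.44 on the log2 scale. Differences within that size remain possible even there. The interval is not adjusted for the number of genes and does not mark the smallest difference that could be called. Taf7 at 2.12 (limma adjusted p = 0.058) and Taf5 at 1.21 (limma adjusted p = 0.070) were not called.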
